A study of Citrus sinensis with 6 samples.

Results

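Shoot tips of sweet orange 7 days after self-pruning were compared with shoot tips 3 days before it, across all genes of the Affymetrix Citrus Genome GeneChip, an expression array built from citrus transcript sequences. The 2 arrays titled "After self-pruning" and the 2 titled "before self-pruning" were taken by their titles, 4 of the 6 arrays of the series, and every row whose identifier starts with "Cit." was kept, which gave 30171 of 30395 rows. The other 224 rows are control sequences and sequences other than citrus genes. All tips came from spring shoots of adult Cara Cara navel orange trees that grew in the field under natural conditions, with no treatment, so that the groups differ in the stage of the tip alone as far as the labels say. In the before group the tip was turning yellow and its small leaves had begun to drop, and in the after group necrosis was visible around the abscission zone. The remaining pair of arrays, from the begin stage when the separation layer became visible, served only to estimate the spread and to show intermediate values. The arrays are labelled as biological replicates. The methods describe 3 groups of trees for replication, of which 2 arrays a stage were analysed here, and do not say how many tips were pooled for an array.

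Self-pruning is the programmed loss of the growing tip that ends the extension of a citrus shoot. The tip separates at an abscission zone, a narrow plate of small cells whose walls are taken apart by enzymes that act on the middle lamella and on the primary wall, while the tissue left behind forms a protective layer with lignin and waxy polymers. Such a sample therefore mixes a meristem, its leaf primordia, young stem tissue and the abscission zone. In bulk tissue of this kind, fewer cells of a type and less transcript per cell cannot be told apart.

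Over all 30171 citrus probe sets, most differences between the stages were small and a tail of large ones ran further upwards than downwards. All signals are log2 values, and a difference is the mean of the after arrays minus the mean of the before arrays, with the standard error (SE) from limma and n = 2 arrays for each stage. The median difference was -0.04, the middle portion from the lower to the upper quartile ran from -0.35 to 0.27, and the values at quantiles 0.01 and 0.99 were -2.20 and 2.62. A total of 26057 probe sets (86.4%) differed by less than 2-fold. At 4-fold or more, 653 probe sets were higher and 376 lower after self-pruning, at 8-fold 202 and 97, at 16-fold 54 and 28, and at 32-fold 7 and 4. The 653 and 376 probe sets also passed an unadjusted p of 0.001 in limma, which made them differentially expressed genes (DEGs) by the thresholds of the study (2.16% and 1.25% of the probe sets). At a Benjamini-Hochberg adjusted p under 0.05 in limma, the level at which a single gene or list member is said here to have risen or fallen, 9012 probe sets rose (29.9%) and 10841 fell (35.9%). These shares are the background against which the counts of every gene list are to be read. Of these calls, 15739 (79.3%) were for differences within 2-fold.

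The p-values measure only the spread between these arrays, which was very small. The arrays of a stage differed with an SD of 0.125 over all citrus probe sets (Pearson r = 0.999, a correlation over genes and not over samples), against r = 0.948 to 0.95 between an after and a before array. The after and before arrays did not overlap for 24707 probe sets (81.9%). The share of calls depended on the signal. With a mean signal of up to 5, 13.2% of 7161 probe sets rose and 14.1% fell, and above 11, 34.8% of 2445 rose and 55.4% fell.

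**Figure D1:**
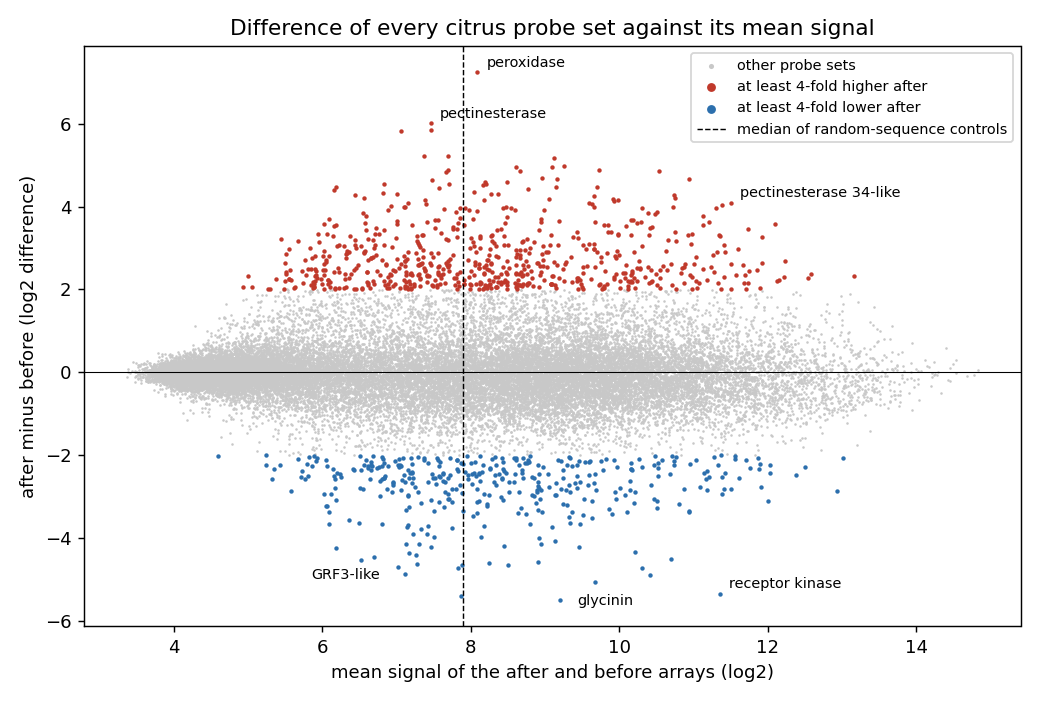
Difference after minus before (log2) of each of the 30171 citrus probe sets against its mean signal over the 4 arrays (log2), with the DEGs in colour and the median of the random-sequence controls (7.90) as a dashed line. The 653 higher probe sets reach a difference of 7.24 and the 376 lower ones a difference of -5.49, and both lie mostly at intermediate signals.

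Many of the 4-fold differences started or ended at low signal. The 23 control probe sets with random sequence had a median signal of 7.90, whereas the 60 reporter controls reached at most 5.67, so the level taken as background depends on the controls. Of the 653 higher DEGs, 473 (72.4%) had a before mean under the random-control median, and of the 376 lower DEGs, 273 (72.6%) had an after mean under it. Only 14555 of all 30171 citrus probe sets had an after or a before mean above this median. At or below the highest reporter control, the counts of DEGs were 166 of 653 and 90 of 376. The size of those differences is uncertain. The higher DEGs had a median signal of 9.61 after and 6.78 before self-pruning, and 7.05 at the begin stage. The lower DEGs had medians of 6.88 after and 9.63 before, and 9.15 at the begin stage. Since the DEGs were picked by the contrast of after with before, the begin values alone did not enter that difference. In both directions the begin median lay nearer to that of the before arrays. Of the higher DEGs, 42.7% came from probe sets with an _s_at or _x_at suffix, which can bind transcripts of several related genes, and 31.1% of the lower ones, compared with 28.9% of all citrus probe sets. The gap in signal between the 3′ and 5′ actin probe sets, a sign of RNA integrity, was 1.62 and 1.66 on the after arrays and 1.87 and 1.94 on the before arrays, and its part in the results was not tested.

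The label calls the tissue shoot meristems, whereas the methods describe tips with the abscission zone. Of the 7 markers of meristems and leaf primordia that the array itself names, 5 fell and 1 rose (71.4% and 14.3%; median -1.03). When the replicate number entered the fit, 2 rose. Over all citrus probe sets, 35.9% fell and 29.9% rose. The only epidermal marker that it names (Cit.23310.1.S1_at) fell by 3.64. Of 10 xylem and fibre markers, 7 rose and 1 fell (70% and 10%; median 0.50; 2 fell with the replicate number in the fit). Of 26 markers of green mesophyll, 3 rose and 17 fell (11.5% and 65.4%; median -0.23). Of 18 seed and embryo markers, 2 rose and 7 fell (11.1% and 38.9%; median -0.19; 11 fell with the replicate number in the fit). Of 7 pollen and anther markers, 4 rose and 2 fell (57.1% and 28.6%; median 0.23). The median signal of the meristem markers was 7.25 after and 8.74 before self-pruning, that of the xylem and fibre markers 8.92 and 5.79, and that of the mesophyll markers 10.4 and 10.9. No array name gave a phloem marker. The part that a different make-up of the tissue has in the results below was not tested.

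Enzymes that act on pectin, the glue of the middle lamella, were higher after self-pruning. Of 57 such probe sets, 36 rose and 4 fell (63.2% and 7.02%, next to 29.9% and 35.9% of all citrus probe sets; 7 fell with the replicate number in the fit), with a median difference of 0.63 against -0.04 over all probe sets. Of these 57, 11 were higher DEGs and 0 were lower DEGs. Pectinesterases remove methyl groups from pectin and open it to cleavage. A pectinesterase 34-like gene (Cit.193.1.S1_s_at) had signals of 13.55 and 13.56 on the after arrays and 9.45 and 9.46 on the before arrays, a rise of 4.10 ± 0.024 (adjusted p = 1.89e-06, limma). Both groups lay above the random-control median. Pectinesterase 2-like (Cit.28980.1.S1_s_at) had 10.46 and 10.47 after against 4.74 and 4.17 before, and the before arrays were below the random-control median. The pectinesterases Cit.29340.1.S1_s_at (4.46 ± 0.064), Cit.1729.1.S1_s_at (2.63 ± 0.026), pectinesterase 44 (Cit.18581.1.S1_s_at, 2.21 ± 0.027) and pectinesterase 53-like (Cit.31791.1.S1_at, 2.07 ± 0.081) rose as well. Pectate lyases, which cut the demethylated chain, were among the rises. Cit.35568.1.S1_s_at had 12.88 and 12.86 after self-pruning, against 9.97 and 9.97 before it, and Cit.3283.1.S1_s_at had signals of 13.26 and 13.27 on the after arrays and 11.03 and 11.05 on the before arrays. A polygalacturonase-like gene (Cit.20071.1.S1_s_at), which hydrolyses the pectin backbone, had 12.77 and 12.77 after against 10.89 and 10.88 before, a rise of 1.88 ± 0.024. A further pectinesterase 2-like gene (Cit.6756.1.S1_at) fell, with 6.49 and 6.50 after self-pruning, against 7.87 and 7.97 before it.

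Among proteins that remodel xyloglucan, the polymer that tethers cellulose in the primary wall, the array names 63 probe sets with expansins and other wall hydrolases. Of these 63, 28 rose and 15 fell (44.4% and 23.8%, next to 29.9% and 35.9% of all citrus probe sets; median 0.13). Xyloglucan endotransglucosylase/hydrolases (XTH) cut and rejoin xyloglucan chains. The XTH 33-like gene (Cit.24850.1.S1_s_at) had signals of 11.31 and 11.30 on the after arrays and 6.60 and 6.62 on the before arrays, a rise of 4.70 ± 0.026. A second XTH (Cit.1320.1.S1_s_at) was already strong before self-pruning and had 13.47 and 13.47 after against 10.01 and 9.99 before. XTH probe sets Cit.15017.1.S1_at (4.59 ± 0.11), Cit.10363.1.S1_s_at (3.54 ± 0.032) and Cit.1319.1.S1_s_at (3.34 ± 0.051) also rose. A beta-expansin (Cit.39752.1.S1_at), a protein that loosens walls without cutting them, had 11.21 and 11.20 after self-pruning, against 8.06 and 8.15 before it. Xylosidases that trim the wall's side chains differed. Beta-D-xylosidase 2-like (Cit.4211.1.S1_at) rose by 4.16 ± 0.13, and beta-D-xylosidase 1-like (Cit.28480.1.S1_s_at) fell, with signals of 6.61 and 6.66 on the after arrays and 9.78 and 9.85 on the before arrays. Of 67 extensins, arabinogalactan and proline-rich proteins, which are structural proteins of the wall, 35 rose and 6 fell (52.2% and 8.96%, next to 29.9% and 35.9% of all citrus probe sets; median 0.35). Only 21 of them had an after or a before mean above the random-control median, of which 20 rose and 1 fell. A dim probe set passes this filter through the stage where it is high, so these counts add no separate support. Of all citrus probe sets that pass it, 39.5% rose and 48.1% fell. Arabinogalactan peptide 22-like (Cit.17450.1.S1_s_at) had 12.40 and 12.39 after against 8.58 and 8.55 before, and an array-named proline-rich protein (Cit.33335.1.S1_s_at) had 11.59 and 11.58 after self-pruning, against 6.55 and 6.68 before it.

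Genes of the secondary wall were found among both the rises and the falls. Of 90 probe sets named for cellulose synthesis, lignin and fasciclin proteins, 34 rose and 27 fell (37.8% and 30%, next to 29.9% and 35.9% of all citrus probe sets; median -0.01). Fasciclin-like arabinogalactan proteins 11 and 12 are typical of fibres and xylem. The FLA11-like gene (Cit.3876.1.S1_s_at) had signals of 11.71 and 11.70 on the after arrays and 6.49 and 6.56 on the before arrays, a rise of 5.18 ± 0.036, and FLA12 (Cit.2700.1.S1_s_at) had 12.91 and 12.91 after against 9.34 and 9.38 before, a rise of 3.55 ± 0.027. A cellulose synthase catalytic subunit (Cit.6456.1.S1_at) rose by 4.31 ± 0.063, and the xylan synthesis genes IRX9-like (Cit.6760.1.S1_at) and IRX10L-like (Cit.18193.1.S1_at) by 3.97 ± 0.082 and 2.57 ± 0.056. Laccase 3 (Cit.15075.1.S1_at), an oxidase that couples lignin monomers, had 8.28 and 8.36 after self-pruning, against 4.88 and 4.87 before it. The factors NAC43 (Cit.7942.1.S1_at) and MYB103 (Cit.31943.1.S1_at), which switch on secondary walls in Arabidopsis, rose by 2.06 ± 0.080 and 2.43 ± 0.038 at low signals. A chitinase-like protein 2-like gene (Cit.1365.1.S1_x_at), of a type that takes part in cellulose deposition, had signals of 11.79 and 11.80 on the after arrays and 7.57 and 7.50 on the before arrays. Enzymes that make lignin monomers were among the falls. p-Coumarate 3-hydroxylase (Cit.10353.1.S1_at) had 10.11 and 10.10 after against 12.92 and 12.90 before, a difference of -2.81 ± 0.024, and a hydroxycinnamoyl transferase (Cit.37314.1.S1_at) fell by 2.90. The study's annotation, which covers DEGs it chose on these arrays and so is not independent of the direction, names 10 xylem and fibre markers, all 10 higher after self-pruning.

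Genes of the cuticle and of suberin, the waxy polymers of plant surfaces and wound layers, likewise rose and fell. Of 39 probe sets, 18 rose and 9 fell (46.2% and 23.1%, next to 29.9% and 35.9% of all citrus probe sets; median 0.15). Genes of cutin synthesis were among the rises. HOTHEAD-like (Cit.22187.1.S1_s_at), which takes part in making cutin monomers in Arabidopsis, had 11.10 and 11.10 after self-pruning, against 6.22 and 6.25 before it, and the cytochrome P450 genes CYP77A3-like (Cit.15680.1.S1_s_at) and CYP86A2-like (Cit.28881.1.S1_s_at), of families that oxidise fatty acids for cutin, rose by 4.34 ± 0.037 and 3.75 ± 0.12. A GDSL esterase/lipase (Cit.38686.1.S1_at), of an enzyme class that includes cutin synthases, rose by 4.65 ± 0.056. Wax genes were among the falls. ECERIFERUM 1-like (Cit.11241.1.S1_s_at), an enzyme of wax alkane synthesis, had signals of 8.60 and 8.63 on the after arrays and 11.76 and 11.79 on the before arrays, a difference of -3.16 ± 0.028. WAX2-like (Cit.11240.1.S1_at) fell by 2.52 and 3-ketoacyl-CoA synthase 11-like (Cit.26284.1.S1_at), which lengthens fatty acids, fell by 2.46. Genes of the young epidermis were also among the falls. Protodermal factor 2, a homeobox factor of the outermost cell layer (Cit.23310.1.S1_at), had 4.65 and 4.70 after against 8.30 and 8.34 before, and the protodermal factor probe set Cit.39977.1.S1_s_at had 10.81 and 10.81 after self-pruning, against 13.24 and 13.23 before it. All 6 epidermal markers in the study's annotation fell, which again is a set chosen as DEGs on these arrays.

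**Figure D2:**
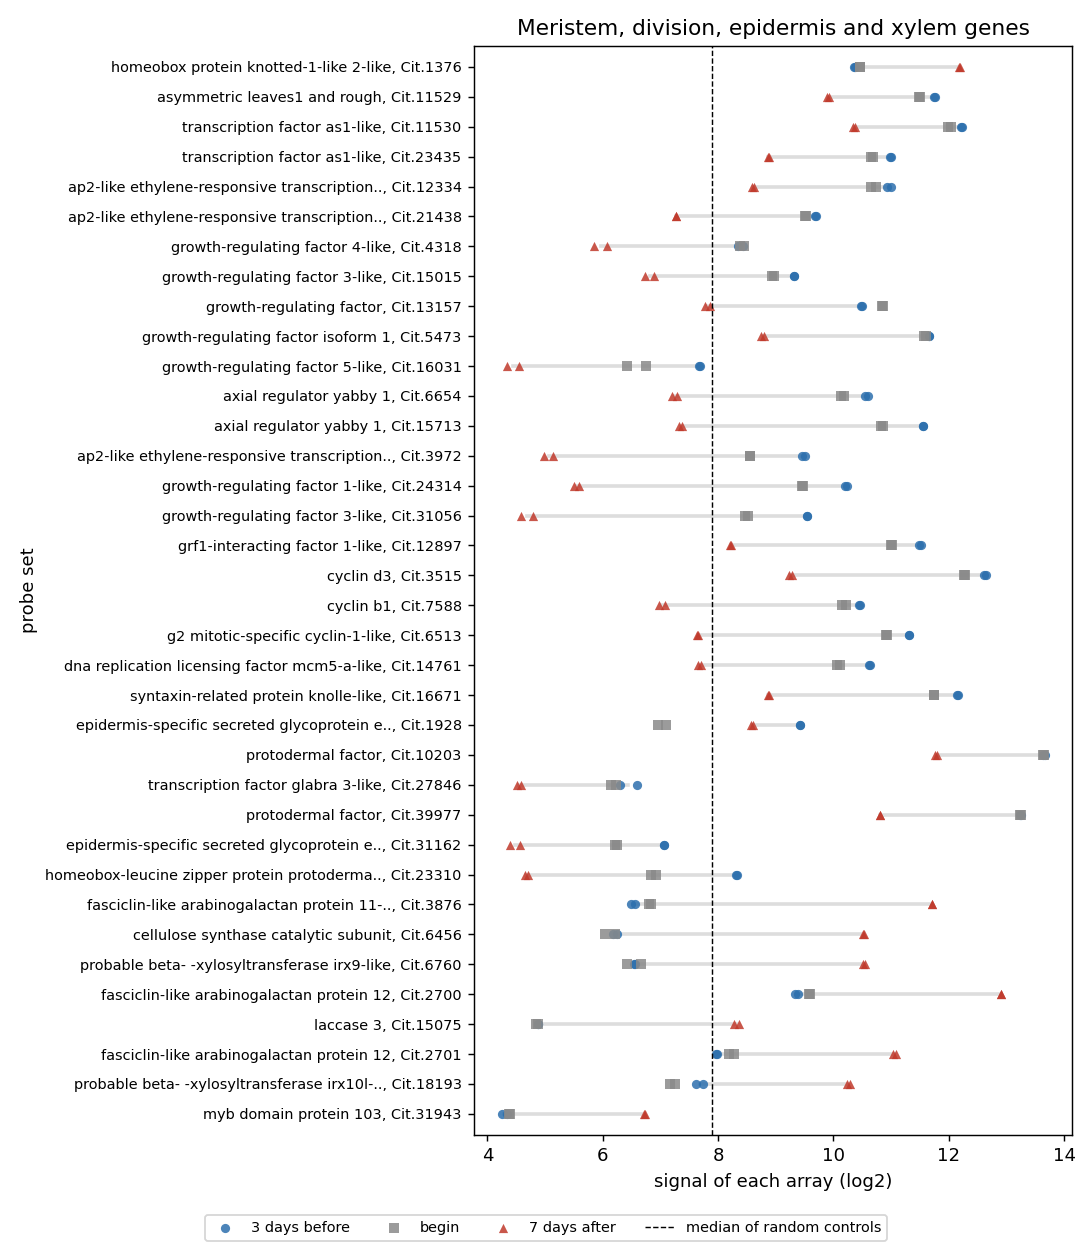
Signals (log2) of each array for genes of the meristem and leaf primordium, cell division, epidermis and xylem, with the stages 3 days before, begin and 7 days after as separate symbols and the median of the random-sequence controls (7.90) as a dashed line. For cyclin D3 the after arrays lie at 9.22 and 9.28 and the before arrays at 12.64 and 12.62, whereas FLA12 is at 12.91 on both after arrays and at 9.34 and 9.38 on the before arrays.

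Cell division genes were lower after self-pruning. Of 81 cell cycle probe sets, 16 rose and 48 fell (19.8% and 59.3%, next to 29.9% and 35.9% of all citrus probe sets; median -0.42). The list held 0 higher and 17 lower DEGs, where the shares over all probe sets were 2.16% and 1.25%. Cyclin D3 (Cit.3515.1.S1_s_at), which drives entry into the cycle, had signals of 9.22 and 9.28 on the after arrays and 12.64 and 12.62 on the before arrays, a difference of -3.38 ± 0.031 (adjusted p = 1.89e-06, limma). The mitotic cyclins B1 (Cit.7588.1.S1_a_at) and cyclin-1-like (Cit.6513.1.S1_at) fell, with differences of -3.42 ± 0.047 and -3.66 ± 0.024. KNOLLE-like syntaxin (Cit.16671.1.S1_at), which builds the new wall between daughter cells, had 8.87 and 8.87 after against 12.15 and 12.14 before. Inhibitors of cyclin-dependent kinases were among the rises. One inhibitor (Cit.29468.1.S1_s_at) had 11.27 and 11.27 after self-pruning, against 9.37 and 9.32 before it, and a probe set (Cit.38671.1.S1_at) that the study annotated as a SIAMESE-type inhibitor and whose array name reads self-pruning had signals of 9.53 and 9.48 on the after arrays and 6.88 and 6.94 on the before arrays. The annotations of that probe set conflict and cannot be settled here. Of 38 probe sets of DNA replication and repair, 2 rose and 33 fell (median -0.84), and of 61 histones and chromatin proteins, 2 rose and 51 fell (median -0.84). The few rises shifted when an array was left out. Chromatin had 4 rises without after replicate 1 and 1 rise without after replicate 2, without before replicate 2 or with centred arrays, and replication had 1 rise without before replicate 1. The replication factor MCM5-like (Cit.14761.1.S1_at) had 7.65 and 7.70 after against 10.64 and 10.62 before, replication protein A 70 (Cit.13967.1.S1_s_at) fell by 2.83, and origin recognition complex subunit 6-like (Cit.6968.1.S1_at) fell by 2.95. A histone-like probe set (Cit.3832.1.S1_s_at) had 9.04 and 9.11 after self-pruning, against 11.80 and 11.78 before it. The microtubule proteins MAP65-3-like (Cit.30293.1.S1_at) and SPIRAL2-like (Cit.19314.1.S1_at) fell, with differences of -3.01 ± 0.029 and -3.34 ± 0.084, although the 75 cytoskeleton probe sets as a whole were even, with 26 rises and 27 falls (median -0.04).

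Regulators that keep young leaves and meristems growing were among the deepest falls. Of 19 array-named regulators of growth and meristems, 4 rose and 10 fell (21.1% and 52.6%, next to 29.9% and 35.9% of all citrus probe sets; median -0.67). Growth-regulating factors (GRFs) promote cell proliferation in leaves together with GRF-interacting factors. GRF1-like (Cit.24314.1.S1_s_at) had signals of 5.50 and 5.60 on the after arrays and 10.23 and 10.19 on the before arrays, a difference of -4.66 ± 0.041. GRF3-like (Cit.31056.1.S1_at) had 4.59 and 4.79 after against 9.55 and 9.55 before, GRF5-like (Cit.16031.1.S1_at) fell by 3.23, and the probe set Cit.5473.1.S1_at fell by 2.88. Their partner GIF1-like (Cit.12897.1.S1_at) had 8.22 and 8.21 after self-pruning, against 11.52 and 11.49 before it. YABBY1, which specifies the lower side of leaves, had signals of 7.33 and 7.37 on the after arrays and 11.55 and 11.56 on the before arrays by probe set Cit.15713.1.S1_at and 7.21 and 7.29 after against 10.55 and 10.59 before by probe set Cit.6654.1.S1_at. The AINTEGUMENTA-like factor Cit.3972.1.S1_at fell by 4.41, and AS1-like, a factor that holds back meristem genes in leaf primordia (Cit.11530.1.S1_at), fell by 1.87. A homeobox gene of the meristem moved against them. KNOTTED-1-like 2 (Cit.1376.1.S1_s_at), of the class that marks meristems and stems, had 12.19 and 12.17 after self-pruning, against 10.38 and 10.36 before it, a rise of 1.81 ± 0.025. Over whole families, 12 of 48 homeobox probe sets rose and 27 fell (median -0.27). BEL1-like 1 (Cit.12189.1.S1_s_at) rose, with signals of 11.66 and 11.65 on the after arrays and 7.58 and 7.62 on the before arrays, and BEL1-like 11 (Cit.27379.1.S1_at) fell, with 4.07 and 4.46 after against 8.80 and 8.79 before. A receptor-like kinase (Cit.9672.1.S1_s_at), whose ligand the annotation does not give, had 8.70 and 8.67 after self-pruning, against 14.05 and 14.03 before it, 40.7-fold lower, with 13.43 and 13.40 at the begin stage.

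Ribosomal proteins shifted together by small amounts. Of 346 probe sets, 9 rose and 256 fell (2.6% and 74.0%, next to 29.9% and 35.9% of all citrus probe sets), the median difference was -0.65, and 0 reached 4-fold. The differences ran from -1.75 to 0.71. The rises numbered 5 without after replicate 2 or without before replicate 1, and 4 without before replicate 2. The deepest fall (Cit.14842.1.S1_s_at) had signals of 9.14 and 9.14 on the after arrays and 10.90 and 10.88 on the before arrays. Proteasome subunits, which degrade tagged proteins, moved alike, with 4 rises and 37 falls among 51 array-named probe sets (median -0.45). The widest difference among these was -0.97 ± 0.027 (Cit.10314.1.S1_at). A further probe set, placed in this list only by the study's annotation of its DEGs, differed by -3.14, with mean signals of 6.51 after and 9.66 before. Of 50 translation factors, 5 rose and 24 fell (median -0.19), and of 107 mitochondrial probe sets, 19 rose and 58 fell (median -0.29). Of 185 probe sets of the ubiquitin pathway, 47 rose and 73 fell (median -0.07).

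Of 56 photosynthesis probe sets, 6 rose and 31 fell (10.7% and 55.4%, next to 29.9% and 35.9% of all citrus probe sets), with a median of -0.18. A probe set of strong signal named for chlorophyll a (Cit.37563.1.S1_s_at) had 13.82 and 13.79 after against 13.97 and 13.93 before, and this difference of -0.15 ± 0.029 missed the threshold when each array was centred on its median or quantile normalization was applied. A protochlorophyllide-dependent translocon component (Cit.17157.1.S1_s_at) fell by 1.85 and chlorophyllase 1 (Cit.12810.1.S1_at), an enzyme of chlorophyll breakdown, had 8.72 and 8.81 after self-pruning, against 10.88 and 10.85 before it.

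**Figure D3:**
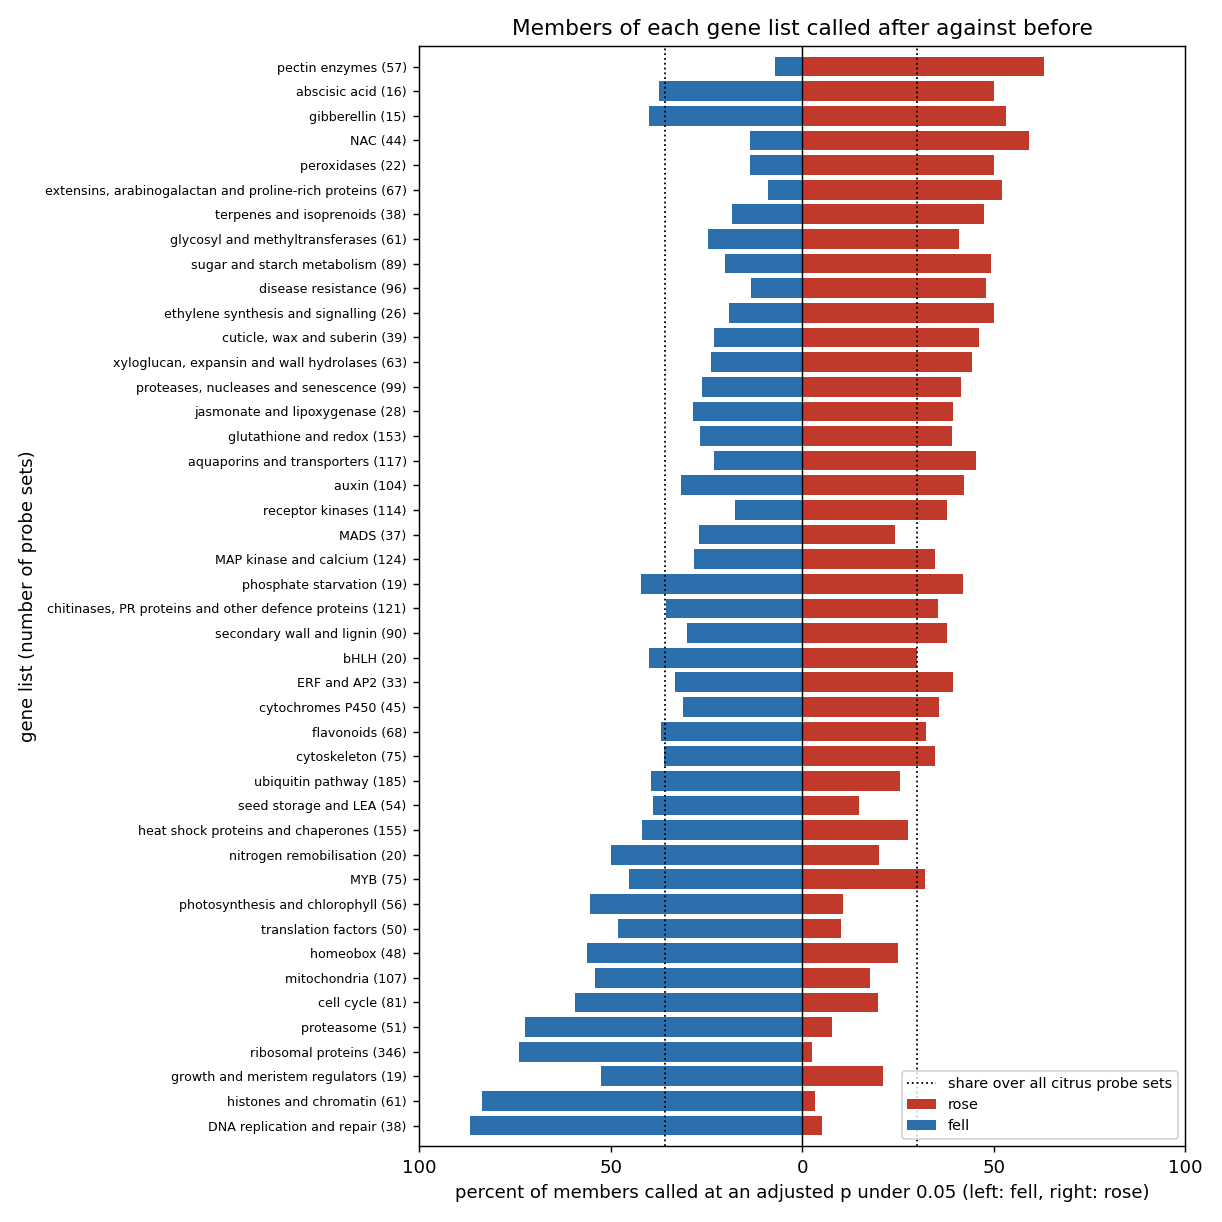
Percent of the members of each gene list with 15 or more probe sets that rose (right) or fell (left) at an adjusted p under 0.05 in limma, ordered by the median difference, with the shares over all citrus probe sets (29.9% and 35.9%) as dotted lines. Pectin enzymes stand at the top with 63.2% higher, and ribosomal proteins, histones and DNA replication lie near the foot with 74.0%, 83.6% and 86.8% lower.

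Of 121 chitinases, pathogenesis-related (PR) and other defence proteins, 43 rose and 43 fell (35.5% each; median -0.01), shares near the 29.9% and 35.9% of all citrus probe sets. A PR-1-like gene (Cit.31825.1.S1_at), a common sign of salicylate defence, had signals of 11.07 and 11.07 on the after arrays and 7.73 and 7.92 on the before arrays, and germin-like protein 10 (Cit.4629.1.S1_s_at) had 10.54 and 10.56 after against 6.60 and 6.67 before. Chitinases, which attack fungal walls, were among the falls. Basic endochitinase-like (Cit.20412.1.S1_s_at) had 8.48 and 8.35 after self-pruning, against 11.78 and 11.78 before it, and chitinase Cit.302.1.S1_s_at had signals of 7.52 and 7.52 on the after arrays and 11.16 and 11.16 on the before arrays. A class 4 PR protein (Cit.21717.1.S1_at) fell by 3.91. Disease resistance proteins, the intracellular receptors of pathogens, were at low signal (medians of 5.74 after and 5.29 before). Of 96, 46 rose and 13 fell (47.9% and 13.5%; median 0.20). Only 20 of the 96 had an after or a before mean above the random-control median, of which 15 rose and 4 fell. Dim members pass this filter through the stage where they are high, so these counts add no separate support. Of all citrus probe sets that pass it, 39.5% rose and 48.1% fell. Peroxidases use hydrogen peroxide to oxidise phenols, lignin monomers among them. Of 22, 11 rose and 3 fell (median 0.38; 5 fell with the replicate number in the fit or with each array centred on its median). One peroxidase (Cit.5743.1.S1_s_at, an array name only) had 11.70 and 11.72 after against 4.43 and 4.50 before. Its before signals lay below the highest reporter control, so the size of this rise is uncertain. Its begin signals of 4.36 and 4.54 were as low as those before. Peroxidase 2 (Cit.11854.1.S1_at) rose by 2.49 ± 0.033 and a cytosolic copper/zinc superoxide dismutase (Cit.28102.1.S1_s_at), which turns superoxide into hydrogen peroxide, by 3.21 ± 0.058. Of 153 glutathione and other redox probe sets, 60 rose and 41 fell (median 0.08).

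Of 99 probe sets of proteases and other enzymes of senescence, 41 rose and 26 fell (41.4% and 26.3%, next to 29.9% and 35.9% of all citrus probe sets; median 0.08). Aspartic proteinase nepenthesin-2 (Cit.25191.1.S1_s_at) had 13.01 and 13.00 after self-pruning, against 9.24 and 9.24 before it, a rise of 3.77 ± 0.025 between well-measured signals. An aspartyl protease (Cit.28117.1.S1_s_at) had signals of 9.57 and 9.66 on the after arrays and 5.52 and 5.83 on the before arrays, and a cysteine proteinase (Cit.4078.1.S1_at) rose by 3.69 ± 0.032 at low signal. Senescence-associated protein 13 (Cit.30525.1.S1_at) fell, with 8.18 and 8.17 after against 10.38 and 10.45 before.

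Among transcription factor families, NAC factors, which include regulators of senescence and secondary walls, had 26 rises and 6 falls among 44 (59.1% and 13.6%, next to 29.9% and 35.9% of all citrus probe sets; median 0.41). The NAC-domain gene Cit.14763.1.S1_at had 8.95 and 9.01 after self-pruning, against 4.49 and 4.81 before it, and NAC90-like (Cit.29605.1.S1_at) rose by 2.81 ± 0.075. NAC4 (Cit.10152.1.S1_s_at) fell, with signals of 5.91 and 6.11 on the after arrays and 9.10 and 9.16 on the before arrays. Cit.14763.1.S1_at and NAC4 are placed here by the study's annotation only, since the differences of the 44 ran from -2.10 to 3.04. NAC4, at -3.12, is counted below with the jasmonate probe sets, whose lowest difference is the same. Of 13 WRKY factors, a family tied to defence and senescence, 8 rose and 3 fell (61.5% and 23.1%; median 0.33). WRKY70-like (Cit.6048.1.S1_s_at) had 12.04 and 12.04 after against 8.41 and 8.45 before, and WRKY41 (Cit.12779.1.S1_at) rose by 3.40 ± 0.028. Of 33 ERF and AP2 factors, 13 rose and 11 fell (39.4% and 33.3%; median -0.01), and of 75 MYB factors, 24 rose and 34 fell (32% and 45.3%; median -0.14). The ethylene response factor ERF5-like (Cit.1270.1.S1_s_at) had 12.07 and 12.07 after self-pruning, against 8.73 and 8.75 before it, and ERF105 (Cit.2675.1.S1_s_at) had signals of 12.77 and 12.77 on the after arrays and 10.89 and 10.89 on the before arrays. MADS factors, with 9 rises and 10 falls among 37 (24.3% and 27.0%), had a median of 0.03. Of 20 bHLH factors, 6 rose and 8 fell (30% and 40%; median -0.01), and only 5 fell without after replicate 1, after replicate 2 or before replicate 1. Differences between the families were not tested.

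Hormone genes rose and fell within the same pathways. Of 104 auxin-named probe sets, 44 rose and 33 fell (42.3% and 31.7%, next to 29.9% and 35.9% of all citrus probe sets; median 0.05). Auxin response factors, which carry the auxin signal to promoters, were among the falls: ARF2 (Cit.1334.1.S1_at), ARF17-like (Cit.25299.1.S1_at) and ARF9-like (Cit.15798.1.S1_at) fell, with differences of -2.83 ± 0.056, -2.79 ± 0.024 and -2.63 ± 0.11. An AUX28-type repressor (Cit.13997.1.S1_at) rose, with 10.22 and 10.33 after against 7.96 and 7.93 before. Of 26 probe sets of ethylene synthesis and signalling, 13 rose and 5 fell (50% and 19.2%; median 0.19). They held 3 higher and 0 lower DEGs, where the shares over all probe sets were 2.16% and 1.25%. The differences ran up to 2.36, and the deepest fall, of 0.65, was a probe set named as an ethylene receptor (Cit.28131.1.S1_s_at). Of 16 abscisic acid probe sets, 8 rose and 6 fell (50% and 37.5%; median 0.55). The abscisic stress ripening-related gene Cit.8654.1.S1_x_at had 12.96 and 12.95 after self-pruning, against 9.89 and 9.86 before it. Abscisic acid 8′-hydroxylases inactivate the hormone, and the members went apart. Hydroxylase 1-like (Cit.13424.1.S1_at) rose by 2.28 ± 0.074 and hydroxylase 2 (Cit.13287.1.S1_s_at) fell by 2.54. Gibberellin 2-beta-dioxygenases inactivate gibberellin, and 2-beta-dioxygenase 8-like (Cit.26276.1.S1_at) had signals of 11.03 and 11.03 on the after arrays and 8.53 and 8.64 on the before arrays. The gibberellin receptor GID1B-like (Cit.16807.1.S1_at) fell, with 8.44 and 8.45 after against 9.45 and 9.45 before, and 2 gibberellin-regulated proteins (Cit.19872.1.S1_s_at and Cit.11064.1.S1_at) fell, with differences of -2.31 ± 0.025 and -2.24 ± 0.025. Of 15 gibberellin probe sets, 8 rose and 6 fell (53.3% and 40%; median 0.45). Cytokinins are activated by phosphoribohydrolases, and the probe set annotated as LOG, an enzyme of this kind (Cit.13613.1.S1_at), had 6.36 and 6.42 after self-pruning, against 9.20 and 9.20 before it. Of 10 cytokinin probe sets, 3 rose and 2 fell (30% and 20%; median -0.04; 4 fell with the replicate number in the fit, and 1 without after or before replicate 1). Lipoxygenases start jasmonate synthesis. Of 28 jasmonate and lipoxygenase probe sets, 11 rose and 8 fell (39.3% and 28.6%; median 0.08). As examples, lipoxygenase 3 (Cit.12474.1.S1_s_at) rose by 3.47 ± 0.090, whereas the array-named lipoxygenase Cit.17762.1.S1_at fell by 1.77. Salicylate O-methyltransferase (Cit.36935.1.S1_s_at), which makes methyl salicylate, had signals of 12.02 and 12.02 on the after arrays and 7.81 and 7.84 on the before arrays. The esterase that reverses this step, salicylic acid-binding protein 2 (Cit.19437.1.S1_x_at), fell, with 5.52 and 5.41 after against 10.21 and 10.17 before. Of 5 array-named salicylate and methyl esterase probe sets, 1 rose and 3 fell (20% and 60%; median -0.57).

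Genes of phosphate starvation rose by large amounts in part of the group. Of 19 array-named probe sets, 8 rose and 8 fell (42.1% each, next to 29.9% and 35.9% of all citrus probe sets; median 0.00), and 3 were higher DEGs. SPX3-like (Cit.5440.1.S1_s_at), of the family that senses phosphate, had 10.08 and 10.07 after self-pruning, against 5.17 and 5.32 before it, a rise of 4.83 ± 0.068. The phosphate-releasing inorganic pyrophosphatase 2-like (Cit.24426.1.S1_s_at) had signals of 12.06 and 12.06 on the after arrays and 7.87 and 7.94 on the before arrays and at the begin stage 10.83 and 10.83. Monogalactosyldiacylglycerol synthase (Cit.21988.1.S1_s_at), which makes lipids that replace phospholipids, had 9.90 and 9.92 after against 5.85 and 6.03 before. Of 89 probe sets of sugar and starch metabolism, 44 rose and 18 fell (49.4% and 20.2%; median 0.21). Alpha-amylase-like 2 (Cit.14331.1.S1_at), a starch-degrading enzyme, rose by 2.84 ± 0.042, and cell wall invertase (Cit.5734.1.S1_at), which splits sucrose for growing sinks, fell, with 6.62 and 6.81 after self-pruning, against 9.07 and 9.17 before it. Of 20 probe sets of nitrogen remobilisation, 4 rose and 10 fell (20% and 50%; median -0.13). Glutamate decarboxylase (Cit.36250.1.S1_s_at) had signals of 12.52 and 12.50 on the after arrays and 10.52 and 10.48 on the before arrays, and branched-chain aminotransferase 2 (Cit.3629.1.S1_s_at) had 4.65 and 4.69 after against 9.36 and 9.37 before. Of 38 probe sets of terpene and isoprenoid synthesis, 18 rose and 7 fell (47.4% and 18.4%; median 0.26). The limonene synthase probe set Cit.23529.1.S1_at, whose enzyme makes the main citrus oil compound, had 9.97 and 9.91 after self-pruning, against 5.83 and 6.20 before it. Flavonoid probe sets were even, with 22 rises and 25 falls among 68 (median -0.03), although chalcone isomerase (Cit.37518.1.S1_s_at) had signals of 9.18 and 9.25 on the after arrays and 12.42 and 12.38 on the before arrays, and a flavonoid 3′-monooxygenase (Cit.3002.1.S1_s_at) 5.57 and 5.48 after against 9.50 and 9.50 before.

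Of 117 aquaporins and other transporters, 53 rose and 27 fell (45.3% and 23.1%, next to 29.9% and 35.9% of all citrus probe sets; median 0.07). Of 114 receptor kinases, 43 rose and 20 fell (37.7% and 17.5%; median 0.04). Of the 37 with an after or a before mean above the random-control median, 23 rose and 5 fell. Dim members pass this filter through the stage where they are high, so these counts add no separate support. Of all citrus probe sets that pass it, 39.5% rose and 48.1% fell. A multidrug and toxin extrusion protein (Cit.7653.1.S1_at), an exporter of small organic compounds, had 10.30 and 10.31 after self-pruning, against 5.13 and 5.06 before it, and a member of the X intrinsic proteins (Cit.36781.1.S1_s_at), a class of water channel relatives, had signals of 12.01 and 11.98 on the after arrays and 8.34 and 8.32 on the before arrays. Of 124 MAP kinase and calcium proteins, 43 rose and 35 fell (median 0.03), and of 155 heat shock proteins and chaperones, 43 rose and 65 fell (median -0.11). Among broad enzyme families, 16 of 45 cytochromes P450 rose and 14 fell (median -0.01), and 25 of 61 glycosyl and methyltransferases rose and 15 fell (median 0.24). Of 8 flowering regulators, 3 rose and 2 fell (median 0.19).

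The LHY clock gene stood far lower after self-pruning. LHY is a morning factor of the circadian clock. Probe set Cit.17027.1.S1_s_at had 4.84 and 5.10 after against 9.56 and 9.62 before, and at the begin stage 10.88 and 10.86, above the before arrays. Probe sets Cit.19897.1.S1_s_at and Cit.29406.1.S1_s_at fell, with differences of -2.94 ± 0.035 and -2.85 ± 0.066. Of 11 clock probe sets, 0 rose and 10 fell (0% and 90.9%, next to 29.9% and 35.9% of all citrus probe sets; median -0.44), a list that was added after the LHY values had been seen. The clock probe sets were at low signal, with medians of 4.66 after and 7.01 before. Only 4 of the 11 had an after or a before mean above the random-control median. The hour of sampling is not given in the sources used here and cannot be told apart from the stage.

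Some of the deepest falls were complete at the begin stage, others were not. Both storage proteins of seeds described here were high before self-pruning and low at the later stages. Glycinin G1-like (Cit.26593.1.S1_at) had 7.15 and 7.14 after self-pruning, against 12.18 and 12.21 before it, and at the begin stage 7.32 and 7.46. The 11S globulin (Cit.20225.1.S1_at) had signals of 6.22 and 6.07 on the after arrays and 10.10 and 10.16 on the before arrays, and at the begin stage 5.72 and 5.80. An esterase gene (Cit.35.1.S1_x_at, named for polyneuridine aldehyde), the salicylic acid-binding protein 2 gene and branched-chain aminotransferase 2 shared this course, with begin signals of 7.35 and 7.46, 5.37 and 5.44 and 4.997 and 5.06. LEA4 (Cit.10895.1.S1_at), a seed maturation protein whose family shields drying cells, was lowest in between, with 7.26 and 7.29 after against 10.65 and 10.66 before, and 5.09 and 5.09 at the begin stage. Over the array-named seed storage and LEA probe sets, 8 of 54 rose and 21 fell (14.8% and 38.9%, next to 29.9% and 35.9% of all citrus probe sets; median -0.09). The differences of these 54 ran from -3.99 to 2.71. Of 11 such probe sets in the study's annotation, a set chosen as DEGs on these arrays, 5 rose and 6 fell. These 11 ran from -5.05 to 3.59, so the falls named here are only part of the group. A laccase (Cit.2409.1.S1_s_at) had 9.54 and 9.50 after self-pruning, against 11.64 and 11.62 before it, but 4.81 and 4.67 at the begin stage. ERF017-like (Cit.3778.1.S1_at) was also lowest at the begin stage (6.19 and 6.36) and had signals of 12.25 and 12.25 on the after arrays and 9.05 and 9.05 on the before arrays. In contrast, GRF1-like, cyclin D3 and YABBY1 were still high at the begin stage, at 9.45 and 9.47, 12.27 and 12.27 and 10.82 and 10.86. The rises showed both courses as well. FLA11-like and the peroxidase were near their before level at the begin stage, at 6.84 and 6.81 and 4.36 and 4.54, and limonene synthase was at 8.71 and 8.82. The begin and after stages share the before arrays, so these values are set side by side with no test between the comparisons.

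**Figure D4:**
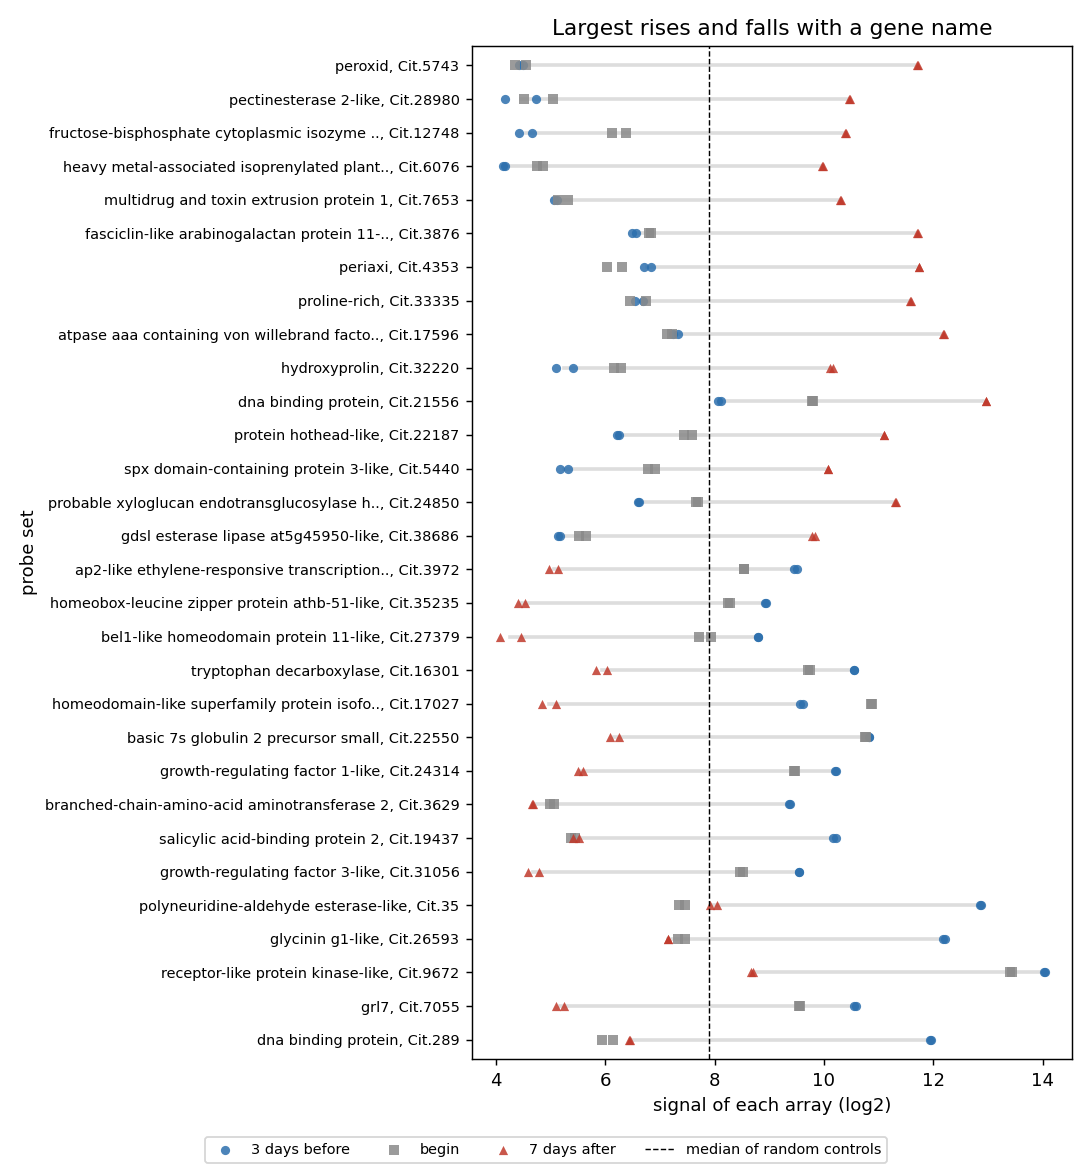
Signals (log2) of each array for the top 15 named probe sets in each direction, by size of difference, with the stages 3 days before, begin and 7 days after as separate symbols and the median of the random-sequence controls (7.90) as a dashed line. Glycinin was at 7.15 and 7.14 on the after arrays and 12.18 and 12.21 on the before arrays, with 7.32 and 7.46 at the begin stage, and the receptor kinase at 8.70 and 8.67 on the after arrays and 14.05 and 14.03 on the before arrays.

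Probe sets without an informative name took part in the large differences too. The largest measured rise of this kind (Cit.30163.1.S1_at) had 9.997 and 9.96 after against 4.70 and 4.82 before, and the largest measured fall (Cit.39637.1.S1_x_at) had 6.61 and 6.63 after self-pruning, against 11.21 and 11.19 before it. Where a transcript target was covered by more than 1 probe set (2540 targets), their differences spanned a median of 0.22, and of 120 such targets with a probe set past 4-fold, 114 had all their probe sets on the same side of 0.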

How the data were processed

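Shoot tips including the abscission zone were frozen, and their RNA was hybridised to 1 Citrus Genome GeneChip per sample, 2 for each of 3 stages. The authors deposited log2 signals computed by RMA, which corrects the background, normalizes between arrays and summarises the probes of a probe set, as the methods state (MAS 5.0 is also named there). The deposited log2 values were used as given. Arrays have no read depth, so the number of arrays limits the precision. Arrays were grouped by their titles. Differences were tested with limma 3.58.1 (R 4.3.3; lmFit on all 6 arrays, contrast of after with before, eBayes) over the 30171 citrus probe sets, with Benjamini-Hochberg adjustment over all of them, a two-sided test. The fit was tested on simulated data with independent noise on each array. That simulation cannot show how a pairing of arrays by replicate number would change the SE and p-values. The thresholds of the methods, a 4-fold difference and an unadjusted p of 0.001, defined the DEGs. The significance analysis of microarrays named in the methods was not run, since 4 arrays allow only 6 relabellings.

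Gene names came from a probe annotation that the files give in shortened form (23632 probe sets, a median of 7 letters) and, for 1082 probe sets, from the homologues that the study lists for its DEGs, a choice made on these arrays. The columns of authors' comparisons in that annotation were not used. The 49 gene lists and 7 marker lists were built by words in these names, counts in the text being over the array names unless stated. The comparison, the lists and the named genes were chosen with earlier results of these data known. False word matches were removed and the clock list was added after values had been seen. Named genes were the 15 largest rises and falls with a gene name, the 10 largest of each among probe sets above the random-control median in both groups, the 3 largest of each in every list, probe sets the study names, the extremes without a name, and the markers. Lists were described by counts and medians only, and no set test was run.

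Replicate numbers are shared by the stages, and the labels do not say that they pair the arrays. The differences of replicate 1 minus replicate 2 correlated between stages at 0.475 (after and before), 0.463 (after and begin) and 0.561 (begin and before). The main fit held no term for the replicate number, so its SE and p-values leave out such a pairing. A fit with the replicate number as a block was run as an alternative. The alternatives were centring, quantile normalization, 4 arrays only, no moderation, a trend in the prior variance, the replicate number as a block, 2 filters on dim probe sets, all rows, other thresholds and each array left out. No sequences were used here.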

Additional observations from a re-analysis of the deposited data

Results flagged for a closer look

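Control probe sets for ubiquitin 11, which are not among the citrus rows compared in the report, differed between the stages more than the hybridization controls did. The probe set at the 5′ end (AFFX-Cit-ubq11-5_s_at) had 12.95 and 12.97 on the after arrays and 12.11 and 12.13 on the before arrays, a difference of 0.84 ± 0.025 (SE, n = 2 arrays for each stage; adjusted p = 1.64e-05, limma). The probe set at the 3′ end (AFFX-Cit-ubq11-3_x_at) had 12.84 and 12.79 on the after arrays and 12.33 and 12.31 on the before arrays, a difference of 0.50 ± 0.028 (adjusted p = 0.000109, limma). The 27 hybridization controls ranged from -0.19 to 0.26.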

How the results depend on the processing

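The counts of DEGs moved most with the fold threshold: at 2-fold there were 2262 higher and 1826 lower, at 8-fold 202 and 97. Under the other alternatives they ranged from 553 to 671 and from 326 to 383, where the lowest counts came from the filter at the random-control median. Without 1 array they were 627 to 671 and 371 to 383. The 9012 probe sets that rose numbered 6003 under that filter, which tests fewer probe sets, and 7962 to 8110 without 1 array; the 10841 that fell numbered 7276 and 9604 to 9830. With the replicate number as a block, 9930 rose and 11890 fell, the DEG counts were 653 and 376, 8 named probe sets gained a call, 6 list counts moved by over 1.5 times, as given in the report with the lists, and no other call of a named probe set changed. Of the 110 counts of list members that rose or fell, 60 moved by over 1.5 times under at least 1 alternative, and 55 did under the random-control filter, which tests fewer probe sets. Among probe sets with an after or a before mean above that median, 14555 in all, 39.5% rose and 48.1% fell by the calls of the report. For the receptor kinases these shares were 62.2% and 13.5%. They were 75% and 20% for disease resistance proteins, and 95.2% and 4.76% for extensins and related proteins. A dim probe set enters this subset through the stage where it is high, so these shares are no independent check. Of 451 named probe sets, 14 lost their call under at least 1 alternative. The only reversal was a photosystem probe set, Cit.39422.1.S1_s_at, at -0.10 as deposited and 0.023 after quantile normalization; the cause was not tested. The median of all probe sets was -0.04 as deposited and -0.03 with centring or quantile normalization. Under centring 0 lists changed the sign of their median, and under quantile normalization 1 list did, whose size was 0.007. The random-sequence controls leave the level of background uncertain.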

Other observations

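Probe sets for ribosomal RNA, outside the citrus rows, were lower after self-pruning. One for 26S RNA had 10.44 and 10.43 on the after arrays and 10.86 and 10.84 on the before arrays, a difference of -0.41 ± 0.030 (SE, n = 2 arrays for each stage; adjusted p = 0.000251, limma), with 11.07 and 11.02 at the begin stage. The other had 9.62 and 9.48 on the after arrays and 9.85 and 9.81 on the before arrays, a difference of -0.29 ± 0.061 (adjusted p = 0.0126, limma). The 3′ actin control differed by -0.19 ± 0.028 (adjusted p = 0.0033, limma) and the 5′ actin control by 0.07 ± 0.028 (adjusted p = 0.086, limma).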
